A study of Mus musculus with 2 samples.

Results

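The transcripts described here are those of 6 mouse genes, Elane, Prtn3, Ctsg, Mpo, Prss57 and Ms4a3, out of 32285 genes in the count matrices. They were chosen by name as the serine proteases and the peroxidase of the primary granule of neutrophils, with Ms4a3, a membrane protein of the same stage of development that is neither a protease nor a granule enzyme. All 6 were found under their symbols in both libraries. The study addressed the part that the kinase gene Map4k4 plays in neutrophil development, and sequenced bone marrow of 1 control (Ctrl) library and 1 conditional knockout (Map4k4-cKO, here cKO) library of mice aged 13 to 14 weeks. In each library, 2 parts of c-Kit+ progenitor cells were mixed with 3 parts of whole marrow, and 3′ ends of transcripts were counted by unique molecular identifiers (UMIs) in droplets.

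The cKO mice were Mx1-Cre Map4k4 f/f on the C57BL/6 background. Their control littermates are written in the methods as Mx1-Cre Map4k4-/-, a spelling kept here, so that both groups carried Mx1-Cre. The Mx1 promoter answers to interferon and was switched on with poly I:C, and it acts in many cell types and not in neutrophils alone. The sources used here do not give whether the controls received poly I:C or how many mice made up a library. The UMIs of Map4k4 came to 72.3 CPM in Ctrl and 64.0 CPM in cKO over all kept cells, where CPM is UMIs scaled to a total of 1000000. Which exons were flanked by loxP sites was not stated, so a count of 3′ ends does not check the deletion. The paper itself reports, from RT-PCR, that the Map4k4 transcript was lost in stem and progenitor cells after poly I:C. With 1 library per genotype there was no test of any difference between genotypes. Every interval below is a 95% interval that covers counting error alone, and says nothing of how much 2 animals of the same genotype would differ.

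Neutrophils make their granules in a fixed order. The primary, or azurophil, granules are filled at the promyelocyte stage with myeloperoxidase, which makes hypochlorous acid from hydrogen peroxide and chloride, and with the serine proteases neutrophil elastase, proteinase 3 and cathepsin G, which break down microbes and matrix. The genes of these proteins are switched off as the cell begins to make the secondary granules, which hold lactoferrin and cathelicidin, so that mature neutrophils carry the proteins long after the transcripts are gone. Transcription factors such as PU.1, C/EBP proteins, RUNX1 with CBFb and Myb are known to act at these genes, and mutations of human ELANE cause neutropenia.

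Kept cells numbered 8795 of 10220 barcodes in Ctrl and 5347 of 6872 in cKO. They held 70435113 UMIs in Ctrl and 63245849 in cKO, with a median of 4940 and 8783 UMIs per cell, so the cKO cells had the greater depth. Cell classes were set per cell by the UMIs of marker genes after each cell had been thinned to 1000 UMIs, none of the 6 genes being a marker, and 86.6% of cells in Ctrl and 90.9% in cKO passed exactly 1 gate. Classes are called by the markers of their gate: HSC/MPP-like and GMP-like cells are early progenitors, ProNeu-like cells are the promyelocyte stage, PreNeu-like cells are cycling cells with secondary granule transcripts, imNeu-like and mNeu-like cells are immature and mature neutrophils, and ProMon-like cells are cycling cells of the monocyte lineage. The libraries had 3010 barcodes in common. Of the 2633 that were kept in both, 12.4% passed the same gate in both, against 12.5% from the sizes of the gates alone, so that the shared barcodes did not look like shared cells. No doublet caller was run. B cells and T or NK cells, which do not make these transcripts, still had 4.70 UMIs of the 6 genes per cell in Ctrl (95% interval 4.52 to 4.88, 556 cells) and 3.07 in cKO (2.56 to 3.65, 42 cells). That is 0.144% and 0.0552% of their UMIs, and it is taken below as the level of free RNA in the droplets.

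Of the 6 genes, 3 lie on 1 stretch of chromosome 10. In GENCODE vM21 on GRCm38, Elane (ENSMUSG00000020125) spans chr10:79886247-79888215 on the plus strand with 5 exons, and Prtn3 (ENSMUSG00000057729), the gene of proteinase 3, spans chr10:79874476-79883174 on the same strand with 5 exons. The gap between the end of Prtn3 and the start of Elane is 3072 bases. Cfd, the gene of complement factor D, starts 2637 bases beyond Elane, and Prss57 (ENSMUSG00000020323), a serine protease known as NSP4 in humans, lies 83514 bases away at chr10:79781474-79790961 on the minus strand with 6 exons. Ctsg (ENSMUSG00000040314) lies at chr14:56099881-56102574 on the minus strand with 5 exons, next to the granzyme and mast cell protease genes. Mpo (ENSMUSG00000009350) lies at chr11:87793581-87804413 on the plus strand with 14 exons, and Ms4a3 (ENSMUSG00000024681) at chr19:11629496-11640851 on the minus strand with 7 exons.

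The 250 bases before the RefSeq start site (GRCm38.p6) are printed for the 3 main proteases and for Mpo, 5′ to 3′ in the direction of transcription, because the levels of these 4 genes carry the results below. Capitals mark matches on either strand to 4 short motifs, GAGGAA for PU.1, CAACNG for Myb, TGTGGT for RUNX and TTNCNNAA for C/EBP. The Elane stretch is chr10:79886062-79886311, the Prtn3 stretch chr10:79879417-79879666, the Ctsg stretch chr14:56102575-56102824 (minus strand) and the Mpo stretch chr11:87793534-87793783. The RefSeq start sites of Elane, Prtn3 and Mpo differ from the GENCODE starts given above. The Prtn3 stretch lies wholly inside the GENCODE span of the gene, and the Elane and Mpo stretches lie partly inside theirs. Which start is used in these cells was not tested.
Elane: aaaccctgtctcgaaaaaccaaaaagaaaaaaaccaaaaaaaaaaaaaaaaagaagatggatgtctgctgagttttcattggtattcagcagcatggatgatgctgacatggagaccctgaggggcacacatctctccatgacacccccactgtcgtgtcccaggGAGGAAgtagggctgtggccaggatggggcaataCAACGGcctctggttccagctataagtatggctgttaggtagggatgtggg
Prtn3: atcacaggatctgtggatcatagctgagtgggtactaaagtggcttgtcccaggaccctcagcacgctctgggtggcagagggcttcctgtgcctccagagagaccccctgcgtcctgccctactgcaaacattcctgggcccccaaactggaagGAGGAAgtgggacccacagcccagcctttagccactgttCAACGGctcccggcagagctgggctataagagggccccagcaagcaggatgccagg
Ctsg: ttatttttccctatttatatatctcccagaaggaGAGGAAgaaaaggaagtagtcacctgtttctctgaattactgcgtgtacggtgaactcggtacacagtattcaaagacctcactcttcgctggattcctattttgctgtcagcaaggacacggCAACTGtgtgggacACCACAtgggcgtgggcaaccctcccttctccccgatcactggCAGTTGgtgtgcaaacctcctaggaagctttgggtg
Mpo: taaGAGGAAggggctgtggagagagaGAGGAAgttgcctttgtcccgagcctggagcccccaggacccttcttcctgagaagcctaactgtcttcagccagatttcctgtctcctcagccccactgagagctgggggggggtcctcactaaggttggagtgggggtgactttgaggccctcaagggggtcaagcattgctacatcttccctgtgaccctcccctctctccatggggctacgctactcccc

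Elane and Prtn3 had the same pair of matches in the same order and near the same place. In Elane, GAGGAA lay at positions -85 to -80 from the RefSeq start site, used for all positions here, and CAACGG at -51 to -46. In Prtn3, GAGGAA lay at -95 to -90 and CAACGG at -56 to -51. Ctsg had GAGGAA farther out, at -216 to -211, CAACTG at -93 to -88 and, on the other strand, CAGTTG at -36 to -31 and the reverse of the RUNX motif, ACCACA, at -79 to -74. Mpo had GAGGAA at -247 to -242 and at -224 to -219 and no Myb match in this window. Among 32851 mouse promoters of the same length, 23.3% held the PU.1 letters, 29.3% the Myb letters, 14.0% the RUNX letters, 36.8% the C/EBP letters and 6.58% both PU.1 and Myb. A match is only a run of letters and not a measured binding site. In the promoter of Ms4a3, matched likewise, the only match was to C/EBP, at -59 to -52.

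In ProNeu-like cells the 6 genes together took 4.05% of all UMIs in Ctrl (95% interval 4.04 to 4.06%, 608 cells) and 5.09% in cKO (5.08 to 5.11%, 478 cells). These cells were 6.91% and 8.94% of the kept cells, and held 53.7% of all UMIs of the 6 genes in Ctrl and 66.0% in cKO. Elane, the gene of neutrophil elastase, ranked as number 2 among all genes by UMIs in Ctrl and number 1 in cKO, with 13283 CPM and 16999 CPM. Mpo was number 4 in Ctrl and number 5 in cKO with 11962 and 12094 CPM, and Prtn3 number 5 and number 4 with 8885 and 12497 CPM. Ctsg, the gene of cathepsin G, moved from rank 28 in Ctrl to rank 9 in cKO, with 4026 and 6672 CPM. The other two were far lower. Ms4a3 had 1959 and 2220 CPM at ranks 105 and 99, and Prss57 had 361 and 438 CPM at ranks 339 and 286.

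Per ProNeu-like cell this came to 216 UMIs of Elane in Ctrl and 373 in cKO, 194 and 265 UMIs of Mpo, 144 and 274 of Prtn3, 65.3 and 146 of Ctsg, 31.8 and 48.7 of Ms4a3, and 5.86 and 9.62 of Prss57. The depth of the cells differed in the same direction, since the median ProNeu-like cell had 16303 UMIs in Ctrl and 21022 in cKO. At 1000 UMIs per cell, the median ProNeu-like cell had 39 UMIs of the 6 genes in Ctrl (quartiles 29 and 49) and 49 in cKO (quartiles 36 and 60), and 96.1% and 96.7% of the cells had 10 or more. Nearly every cell of the class thus carried the transcripts. The most loaded 5% of ProNeu-like cells held 12.8% of the class's UMIs of the 6 genes in Ctrl and 13.5% in cKO.

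Across the other classes, all 6 genes were highest in ProNeu-like cells and next highest in GMP-like cells, in both libraries. GMP-like cells had 2.83% of their UMIs in the 6 genes in Ctrl (113 cells) and 3.30% in cKO (48 cells). The drop on either side was steep. HSC/MPP-like cells had 0.416% and 0.440%, PreNeu-like cells 0.371% and 0.430%, imNeu-like cells 0.313% and 0.281%, and mNeu-like cells 0.125% and 0.0657%. In the monocyte lineage, ProMon-like cells had 0.516% and 0.458%, and monocyte-like cells 0.549% and 0.517%. The basophil, mast cell and eosinophil gate had 0.899% in Ctrl (63 cells) and 1.44% in cKO (24 cells), the third level in order for Ctsg, Mpo and Ms4a3 in both libraries, though for Prss57 in cKO its interval overlapped that of GMP-like cells. Cells that passed no gate had 1.68% and 2.28%. In an unsupervised clustering, 50 of the 113 GMP-like cells of Ctrl and 12 of the 48 of cKO fell in clusters named ProNeu. The most loaded 5% of GMP-like cells, 6 in Ctrl and 3 in cKO, were all in those clusters. The part of this in the level of GMP-like cells was not tested.

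The order of the lower classes differed from gene to gene. After ProNeu-like and GMP-like cells, Elane in Ctrl was next in PreNeu-like cells (1471 CPM), then in monocyte-like (1185 CPM) and imNeu-like cells (1175 CPM), whose intervals overlapped. In these lower classes a small part of the cells held much of the UMIs of the 6 genes, as given below. Mpo in Ctrl was higher in monocyte-like cells (2125 CPM) and HSC/MPP-like cells (2023 CPM), whose intervals overlapped, than in imNeu-like (760.1 CPM) or PreNeu-like cells (725 CPM). Prtn3 did not differ beyond its intervals between HSC/MPP-like (949.9 CPM) and PreNeu-like cells (936 CPM) in Ctrl, nor in cKO (1341 and 1375 CPM). From the ProNeu-like to the PreNeu-like stage, Ctsg was lower by the largest fold of the 6, 33.0-fold in Ctrl and 43.2-fold in cKO. The fold was 16.5 and 19.0 for Mpo, 9.03 and 10.2 for Elane, 9.50 and 9.09 for Prtn3, 5.13 and 5.76 for Ms4a3, and 4.65 and 5.13 for Prss57. In PreNeu-like cells of Ctrl, Ctsg (122 CPM) was at the level of free RNA in CPM given below, and Mpo was near it. That level was lower in cKO, which limits how the folds of Ctsg and Mpo can be compared. From HSC/MPP-like to ProNeu-like cells, the order was another one. Elane was higher by 24.0-fold in Ctrl and 22.8-fold in cKO, Ms4a3 by 17.4-fold and 12.03-fold, and Mpo by only 5.91-fold and 8.26-fold.

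**Figure D1:**
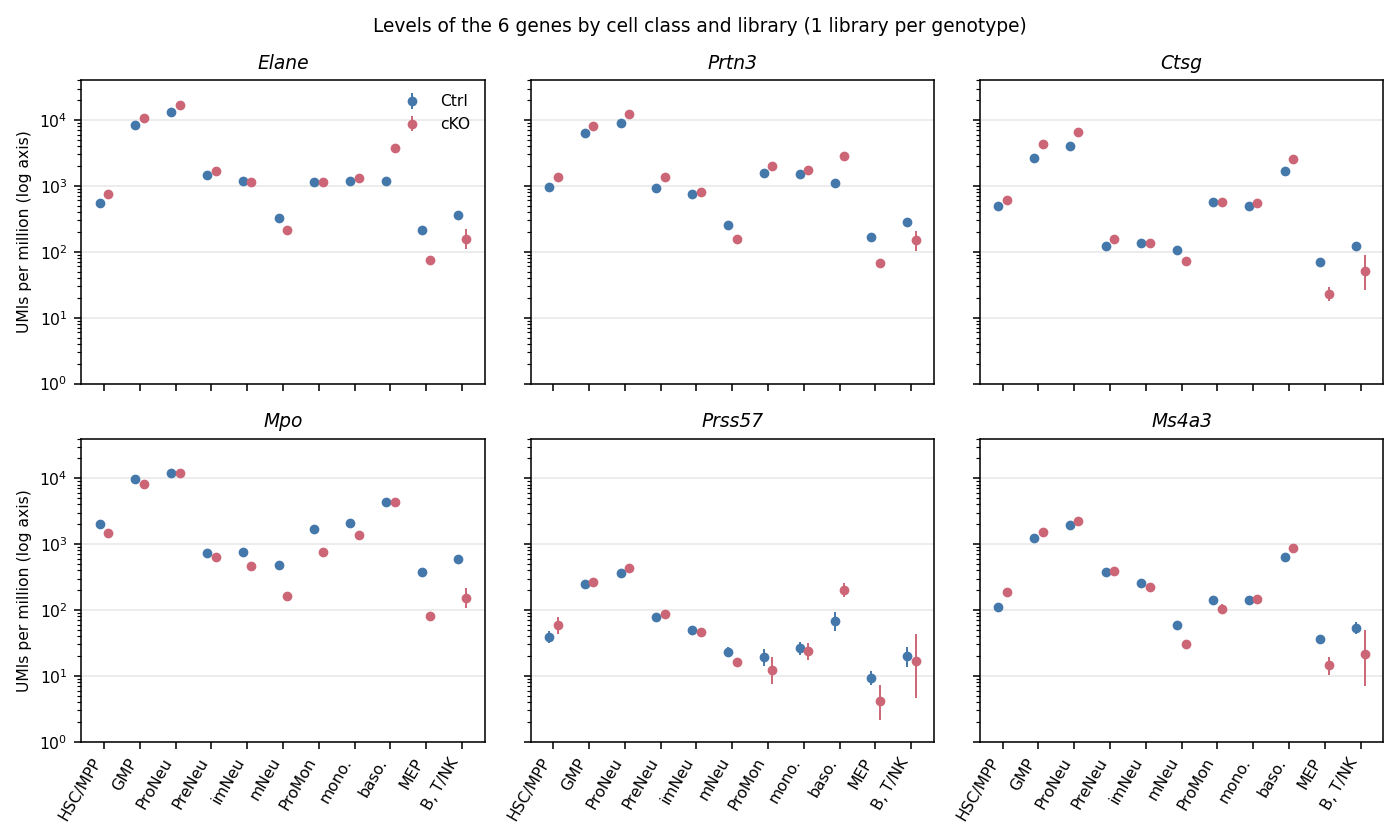
Level of each of the 6 genes in CPM (log axis) in 10 cell classes and in B, T and NK cells pooled, with Ctrl and cKO side by side; points are the sum over the cells of 1 library and bars the 95% Poisson interval. Each gene peaks in ProNeu-like cells, where Elane stands at 13283 CPM in Ctrl and 16999 CPM in cKO, and the pooled lymphoid cells at the right mark the level of free RNA.

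Free RNA set how far down these levels could be read. In B, T and NK cells of Ctrl there were 595 CPM of Mpo, 357 of Elane, 287 of Prtn3, 124 of Ctsg, 53.4 of Ms4a3 and 19.8 of Prss57, and in cKO 154, 158, 150, 51.4, 21.4 and 17.1 CPM. In these cells 97.5% in Ctrl and 95.2% in cKO had at least 1 UMI of the 6 genes. In mNeu-like cells of Ctrl, Elane, Prtn3, Ctsg and Mpo were below it, at 331, 254, 107 and 478 CPM, and were below it in UMIs per cell too, at 0.811, 0.773, 0.754 and 0.702 times the level in B, T and NK cells. These are read as background and not as expression. Elsewhere the scales gave different answers. Ctsg in PreNeu-like cells of Ctrl, at 122 CPM, was 0.985 times the free RNA level in CPM but 3.31 times in UMIs per cell. In MEP-like cells, precursors of red cells and platelets, each of the 6 genes was below it in CPM in both libraries, while the UMIs of the 6 genes per cell came to 13.6 in Ctrl and 7.91 in cKO, above it. These values are read neither as background nor as expression. Elane in HSC/MPP-like cells of Ctrl was 1.55 times the free RNA level in CPM and 4.50 times in UMIs per cell, and Mpo 3.40 and 9.86 times.

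In several of the other classes a small number of cells carried much of the total. The most loaded 5% of cells held 60% of the UMIs of the 6 genes in PreNeu-like cells of Ctrl and 50.6% in cKO, 71.0% and 66.1% in imNeu-like cells, 52.7% and 70.3% in monocyte-like cells, and 46.4% and 67.7% among HSC/MPP-like cells. The 5% held less in ProMon-like cells (44.2% and 37.2%), in MEP-like cells (31.8% and 12.3%) and in mNeu-like cells (15.6% and 26.3%). At 1000 UMIs per cell, the median was 1 UMI of the 6 genes in PreNeu-like cells of Ctrl and 2 in cKO, and 1 in imNeu-like and monocyte-like cells of both. Cells were ranked for this by their UMIs of the 6 genes before thinning, a ranking that favours deep cells. The most loaded PreNeu-like cells had a median of 21179 UMIs against 9888 in the rest of the class in Ctrl. They had more ProNeu markers, 0.248% against 0.0845% of their UMIs. Among the most loaded cells, 15 of 46 PreNeu-like and 29 of 84 imNeu-like ones of Ctrl were in clusters named ProNeu. In cKO these were 6 of 36 and 5 of 73. Without the most loaded 5%, PreNeu-like cells had 0.165% of their UMIs in the 6 genes in Ctrl and 0.237% in cKO. The imNeu-like cells then had 0.104% and 0.107%, where free RNA stood at 0.144% and 0.0552%. The part of depth, and of droplets with more than 1 cell, in this was not tested.

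Cells were ordered by secondary granule UMIs at 1000 UMIs per cell. This took in the progenitor and neutrophil gates up to imNeu-like cells, with the ungated cells. Free RNA enters this order too. The median B cell had 7 secondary granule UMIs of 1000 in Ctrl and 3.5 in cKO, and the median T or NK cell 6 and 2.5. The low bins therefore need not hold the same stage in both libraries. In Ctrl, Elane stood at 7287 CPM in cells with 0 to 4 secondary granule UMIs, 13249 CPM with 10 to 19, 6914 CPM with 40 to 79, 1363 CPM with 80 to 119 and 266 CPM with 120 or more. Ctsg had its highest value at the start, 2774 CPM, and was at 2210 CPM with 10 to 19, 628 CPM with 40 to 79, 92.2 CPM with 80 to 119 and 50.04 CPM with 120 or more. In cKO, Elane was at 11914, 15541, 8560, 1961 and 253 CPM and Ctsg at 5341, 3343, 1090, 96.8 and 32.8 CPM in the same bins. With 5 to 9 UMIs, Elane stood at 7984 CPM in Ctrl and at 17241 CPM in cKO, its highest value there, and Ctsg at 2185 and 5404 CPM. Among the UMIs of the 6 genes in Ctrl, the part of Ctsg went from 10.99% in the first bin to 3.79% with 40 to 79, and that of Elane from 28.9% to 41.8%. The parts of Ms4a3 and Prss57 were larger in the last bin than in the first, at 4.47% and 20.1% for Ms4a3 and 0.831% and 4.03% for Prss57 in Ctrl, and at 4.36% and 19.9% and 0.838% and 4.28% in cKO. In the last bin of Ctrl, Elane, Ctsg, Prtn3 (222 CPM) and Mpo (228 CPM) were below the free RNA level in CPM. So were Ctsg and Mpo (97.1 CPM) in the last bin of cKO, and Ctsg with 80 to 119 in Ctrl. UMIs per cell were not compared for the bins, so the make-up of the last bin is not read as that of expression.

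**Figure D2:**
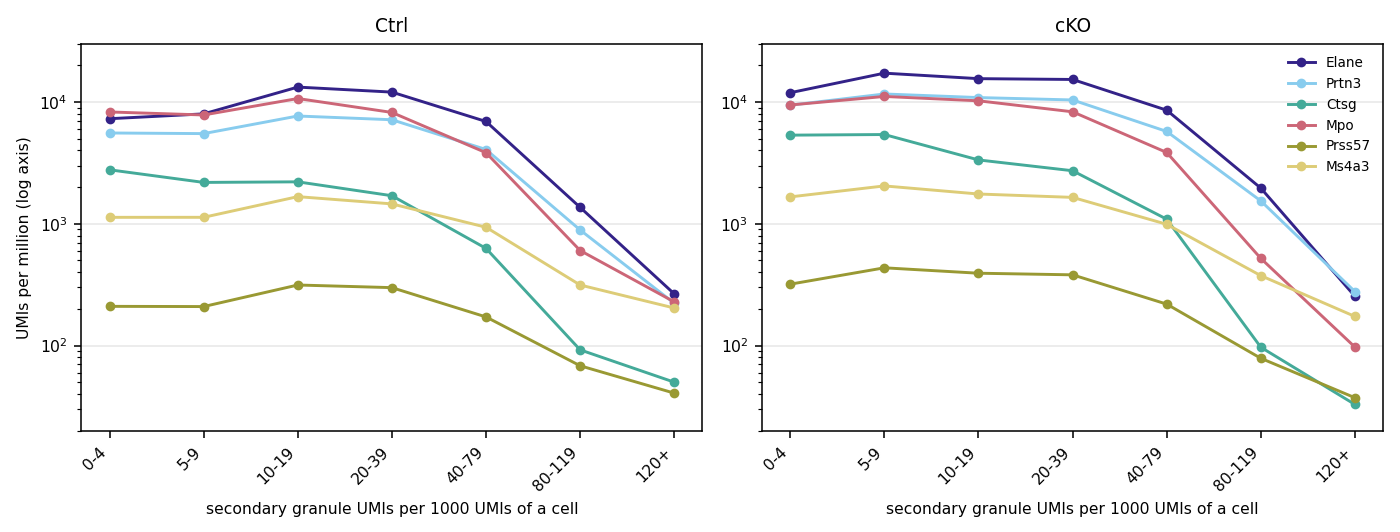
CPM of each gene (log axis) against bins of secondary granule UMIs per 1000 UMIs of a cell, over the progenitor gates, the ProNeu-like, PreNeu-like and imNeu-like gates and ungated cells, with Ctrl on the left and cKO on the right. The line of Ctsg falls earliest, from 2774 CPM to 628 CPM at 40 to 79 UMIs in Ctrl, while Ms4a3 and Prss57 fall least. In the last bin of Ctrl, Elane, Prtn3, Ctsg and Mpo are below the level of free RNA in CPM.

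The mixture of the 6 transcripts changed with the stage. Mpo made up 48.6% of their UMIs in HSC/MPP-like cells of Ctrl, 34.0% in GMP-like, 29.6% in ProNeu-like and 19.5% in PreNeu-like cells. In cKO its part was 33.3%, 24.5%, 23.8% and 14.8% in the same order, lower than in Ctrl at each stage. Elane was 13.3%, 29.2%, 32.8% and 39.6% of the UMIs in Ctrl and 17.0%, 32.5%, 33.4% and 38.8% in cKO. Ctsg made up 9.95% in ProNeu-like cells of Ctrl and 13.1% in cKO, and 3.28% and 3.59% in PreNeu-like cells. The mixture in B cells of Ctrl, with 41.2% Mpo and 25.5% Elane, was richer in Mpo than that of ProNeu-like cells.

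**Figure D3:**
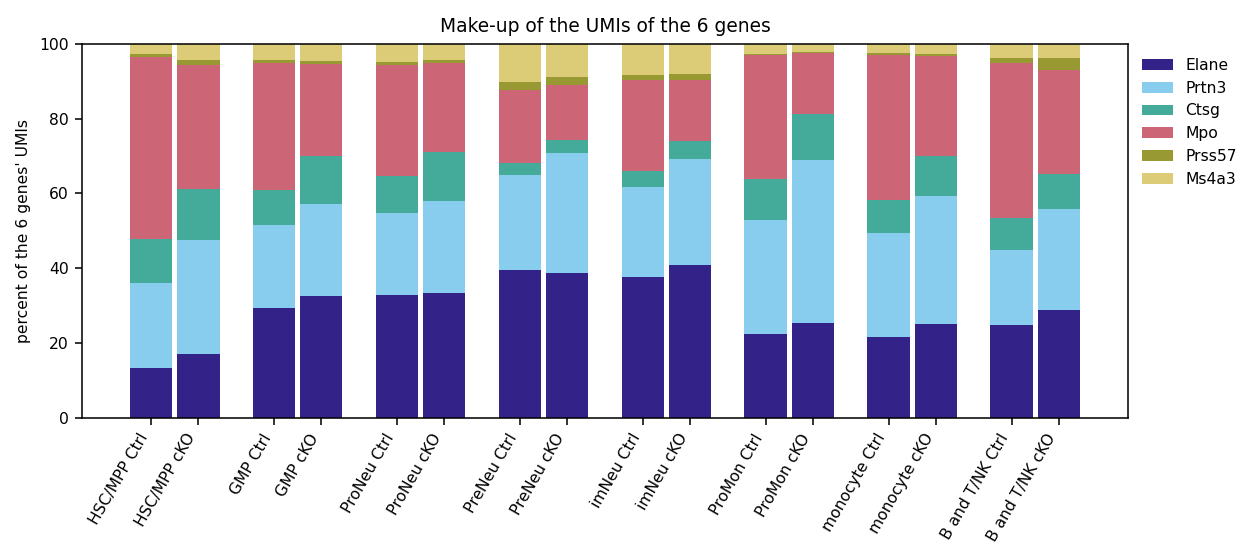
Stacked bars of the percent of the UMIs of the 6 genes that each gene takes, for 7 cell classes and for pooled B, T and NK cells, with Ctrl and cKO next to each other. The Mpo part shrinks from HSC/MPP-like (48.6% in Ctrl) to PreNeu-like cells (19.5%), and is smaller in cKO than in Ctrl in each class drawn.

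Among single ProNeu-like cells at 1000 UMIs, the quartiles of Elane were 7 and 17 UMIs with a median of 12 in Ctrl, and 10 and 21 with a median of 15 in cKO. Mpo had a median of 11 (quartiles 8 and 15) in Ctrl and 12 (8 and 15) in cKO, Prtn3 8 (5 and 11) and 11 (7 and 15), and Ctsg 3 (2 and 5) and 5 (3 and 8). The quartiles of Mpo were thus the same in both libraries, and those of the proteases were higher in cKO. A few cells stood out for Mpo, with up to 107 UMIs of 1000 in Ctrl and 105 in cKO. Elane and Prtn3 went together most closely from cell to cell, with Pearson r = 0.51 in Ctrl (608 cells) and 0.51 in cKO (478 cells). For Ctsg with Mpo r was 0.17 and 0.41. These are descriptions over cells of 1 library, which share their chemistry and free RNA.

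Set against Ctrl, ProNeu-like cells of cKO had more of the proteases and about as much Mpo. A gene is called here when its CPM differs by at least 1.5-fold, and it was counted as measured at 50 CPM or more in 1 of the libraries. Ctsg rose from 4026 to 6672 CPM, a log2 ratio of 0.73 (0.71 to 0.75), and was the only 1 of the 6 to be called, where 0.837% of 2986 measured genes were called higher in cKO and 14.2% lower. It ranked as number 12 from the top. Prtn3 had a log2 ratio of 0.49 (0.48 to 0.50), Elane 0.36 (0.35 to 0.37), Prss57 0.28 (0.22 to 0.34), Ms4a3 0.18 (0.15 to 0.21) and Mpo 0.02 (0.00 to 0.03), and the sum of the 6 had 0.33. All 6 were above the median gene, which stood at -0.16, and Elane was at the 94.0th percentile of the measured genes. Relative to the median gene, Ctsg (0.89) and Prtn3 (0.65) passed 1.5-fold, where 2.95% of measured genes were higher by that measure. Genes of high level as a whole were shifted the same way, with a median of 0.17 over the 144 genes of 1000 CPM or more and of -0.21 over those of 50 to 100 CPM.

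**Figure D4:**
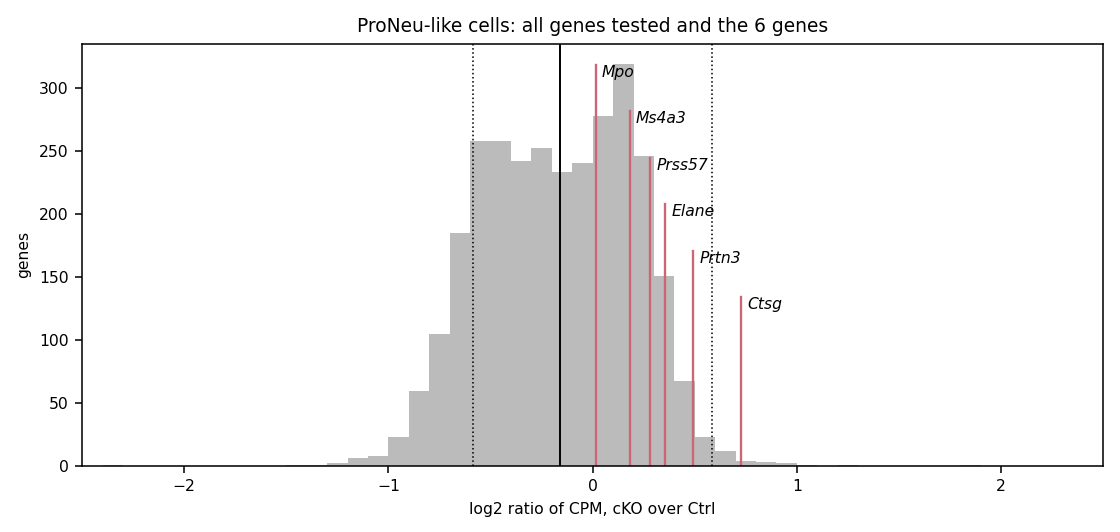
Histogram of the log2 ratio of CPM, cKO over Ctrl, for the measured genes in ProNeu-like cells, with the median (solid line), the 1.5-fold limits (dotted) and the 6 genes (red). All 6 lie right of the median of -0.16, from Mpo at 0.02 to Ctsg at 0.73, the one beyond the upper limit.

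Several other measures moved along with this difference. The ProNeu markers that set the gate took 0.395% of UMIs in ProNeu-like cells of Ctrl and 0.487% in cKO, cycling markers 0.222% and 0.180%, and secondary granule markers 0.534% and 0.459%. Cells exactly at the limit of the gate were 199 of 608 in Ctrl and 114 of 478 in cKO, with 3.43% and 4.08% of UMIs in the 6 genes. Ungated cells 1 marker UMI below it numbered 177 and 98, with 2.85% and 3.65%. In an unsupervised clustering, 479 of the 608 ProNeu-like cells of Ctrl and 356 of the 478 of cKO fell in clusters named ProNeu. Monocyte clusters held 65 and 53 of them, and unnamed clusters 28 and 48. The class fell mostly in different clusters in the 2 libraries. Over cells of any gate, cluster 6 had 675 Ctrl cells and 69 cKO cells, and cluster 17 had 5 and 365. Both were led by Nkg7, Gstm1, Dmkn, Cst7 and Srgn. The part of these measures in the result was not tested. Markers of B cells, of T and NK cells and of MEP were each under 0.01% of the UMIs of the class in both libraries.

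The ProNeu-like cells were also split by secondary granule UMIs, where the low bins have the limit from free RNA given above. With 0 to 4, 5 to 9, 10 to 19 and 20 to 39 such UMIs, there were 376, 112, 64 and 56 Ctrl cells and 310, 68, 43 and 57 cKO cells. The log2 ratio of Prtn3 was 0.50, 0.46, 0.47 and 0.49, and that of Elane 0.39, 0.40, 0.21 and 0.32. Ctsg had 0.71, 0.78, 0.54 and 0.35, so that it was below 1.5-fold in the 2 bins with the most secondary granule UMIs. Mpo had 0.04, -0.01, -0.13 and -0.04. Without the barcodes present in both libraries, Ctsg in ProNeu-like cells was at 0.69, Prtn3 at 0.44, Elane at 0.28 and Mpo at 0.04. With clusters in place of gates they were at 0.79, 0.48, 0.35 and 0.02.

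The number of protease UMIs (Elane, Prtn3 and Ctsg together) per Mpo UMI needs no scaling to library size. This measure was added after the data had been seen, so its likeness from class to class is a description and not a test. ProNeu-like cells had 2.19 protease UMIs per Mpo UMI in Ctrl, against 2.99 in cKO, 1.37-fold higher. In GMP-like cells the values were 1.79 and 2.86, in HSC/MPP-like cells 0.984 and 1.84, and in PreNeu-like cells 3.49 and 5.03. It was lower again in imNeu-like cells, at 2.71 and 4.54, and in mNeu-like cells, at 1.45 and 2.73. The fold of cKO over Ctrl was 1.60 in GMP-like, 1.87 in HSC/MPP-like, 1.44 in PreNeu-like and 1.68 in imNeu-like cells. In the monocyte lineage the ratio was 1.94 and 4.98 in ProMon-like cells and 1.51 and 2.62 in monocyte-like cells. All 8 classes for which it was computed had a fold above 1 under each setting that gave a readable value. Subtracting the free RNA level gave none in mNeu-like cells, because Elane, Prtn3, Ctsg and Mpo were below that level per cell in Ctrl. Free RNA went the same way, with 1.29 protease UMIs per Mpo UMI in B, T and NK cells of Ctrl and 2.33 in those of cKO, the latter from 129 UMIs in all. In classes where the 6 genes were near the level of free RNA, the ratio of the class and that of free RNA cannot be told apart.

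Each of the 3 proteases shared in this. Per Mpo UMI in ProNeu-like cells, Elane had 1.11 UMIs in Ctrl (1.10 to 1.12) and 1.41 in cKO (1.40 to 1.42), Prtn3 0.743 (0.736 to 0.749) and 1.03 (1.02 to 1.04), and Ctsg 0.337 (0.333 to 0.340) and 0.552 (0.547 to 0.557). In GMP-like cells, Ctsg per Mpo UMI went from 0.275 (0.266 to 0.286) to 0.525 (0.503 to 0.549). Ms4a3 per Mpo UMI differed least among the genes with many UMIs, 0.164 (0.161 to 0.166) against 0.184 (0.181 to 0.186) in ProNeu-like cells. The intervals of the libraries did not overlap for any of these. How far Ctrl libraries of different mice would differ in the same ratios could not be measured with 1 library per genotype.

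**Figure D5:**
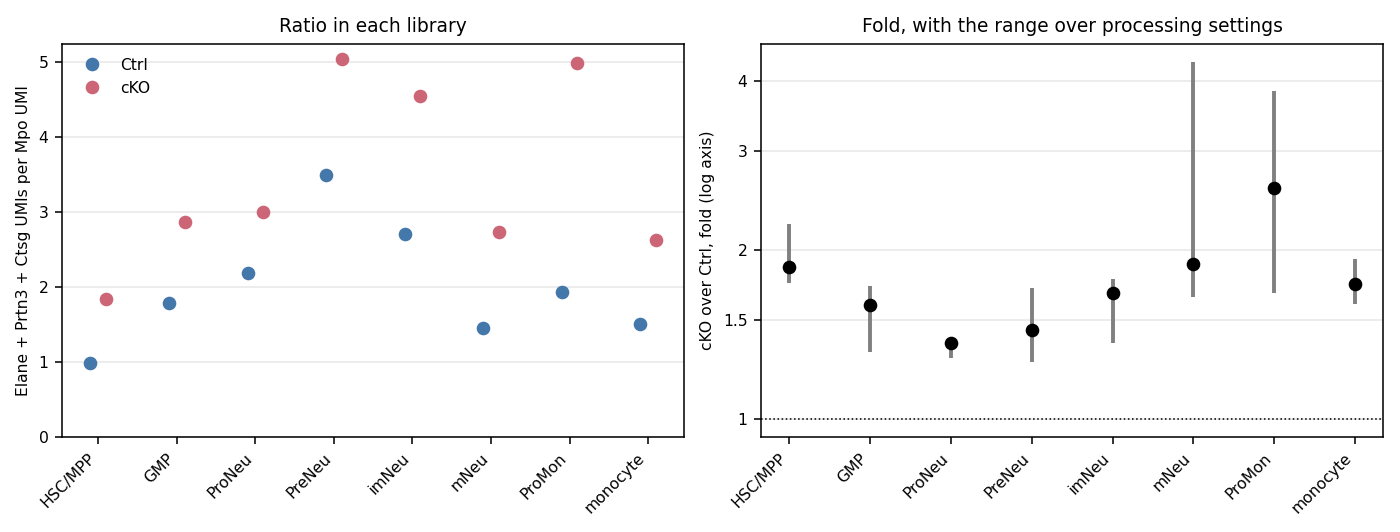
UMIs of Elane, Prtn3 and Ctsg per Mpo UMI in 8 cell classes of each library (left), and the fold of cKO over Ctrl (right, log axis, dots) with its range over the processing settings (grey bars). The cKO value is the higher one in each class, and the lowest end of any grey bar is 1.26, in PreNeu-like cells. The upper end for mNeu-like cells, 4.33, comes from subtracting free RNA and is not read, since these genes were below that level in Ctrl.

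In the other classes the calls differed from class to class, and not all of them held under each setting. In GMP-like cells, only Ctsg was called, at 2653 CPM in Ctrl and 4246 CPM in cKO (log2 ratio 0.68), where 4.96% of measured genes were called higher and 21.6% lower. In HSC/MPP-like cells Prss57 (39.3 and 59.4 CPM) and Ms4a3 (112 and 185 CPM) were called higher, against 5.07% of measured genes (11.8% were lower). The cKO values came from 47 and 146 UMIs in 64 cells, and the log2 ratio of Prss57 had an interval of 0.07 to 1.11. The 4 most loaded cKO cells, 1 of them in a ProNeu cluster, held 67.7% of the class's UMIs of the 6 genes. After thinning, Prss57 was absent from 97.4% of cells in Ctrl and 98.4% in cKO, and Ms4a3 from 91.5% and 92.2%. The share of thinned cells with either gene was thus no higher in cKO. Mpo in HSC/MPP-like cells went from 2023 to 1465 CPM without being called (-0.47). None was called in PreNeu-like cells, where 0.881% of genes were called higher and 12.8% lower. Prtn3 came nearest there, with 936 CPM in Ctrl and 1375 CPM in cKO. Mpo was called lower in imNeu-like cells, at 760.1 and 458 CPM, where 12.6% of genes were called lower and 1.32% higher. The value in Ctrl was near the free RNA level of Mpo in CPM, and that level was itself lower in cKO. Over the settings this log2 ratio ran from -1.53 to 0.88, so its direction could not be read. Mpo was called lower in ProMon-like cells too, at 1705 and 746 CPM (9.67% of genes lower and 4.17% higher), and in monocyte-like cells, at 2125 and 1379 CPM (17.4% lower and 5.6% higher).

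In mNeu-like cells 4 of the 5 that were measured were called lower, where 21.3% of genes were lower and 2.59% higher. In MEP-like cells the 4 that were measured, Elane, Prtn3, Ctsg and Mpo, were all called lower, where 12.3% of genes were lower and 5.89% higher. Both classes sat near or below the level of free RNA in CPM in Ctrl, and that level was itself lower in cKO. For the sum of the 6 genes, the log2 ratio ran from -0.47 to 1.27 over the settings in PreNeu-like cells, from -0.63 to 0.82 in HSC/MPP-like cells and from -0.91 to 1.15 in imNeu-like cells, so neither direction could be read there. The PreNeu-like and imNeu-like cells fell in different clusters in the libraries. Of 912 PreNeu-like cells of Ctrl, 306 were in PreNeu-like and 555 in imNeu-like clusters, against 494 and 20 of 719 in cKO. Of 1675 imNeu-like cells of Ctrl, 1171 were in imNeu-like and 80 in unnamed clusters, against 533 and 665 of 1451 in cKO. Over cells of any gate, cluster 2 had 910 Ctrl cells and 1 cKO cell, and cluster 12 had 42 and 499. The part of this in the values of these classes was not tested. Mpo in ProMon-like cells kept its sign, from -1.79 to -0.25. Mpo in monocyte-like cells kept its sign too, from -1.25 to -0.04, but was called lower in only 7 of 12 settings, the main one included. Ctsg in GMP-like cells ran from 0.21 to 0.86 and was called higher in 7 of 10. In mNeu-like cells Mpo was called lower under each setting that gave a value, from -1.69 to -1.07. MEP-like cells were not tried under other settings. In ProNeu-like cells Ctsg was above 1.5-fold under each setting, from 0.68 to 1.01, and Mpo ran from -0.02 to 0.30.

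Genes with the profile most like each of the 6 were sought over 8 classes with at least 50 cells in both libraries, by Pearson r of log2(CPM + 10) averaged over the libraries, among 5516 genes. GMP-like cells, with 48 cells in cKO, were not among these classes, while mNeu-like and MEP-like cells were. For Elane the nearest genes were Fcor (r = 0.99), B4galt6 (0.98) and Atp6ap2 (0.98). For Prtn3 they were Gstm1 (0.98), Rnaset2a (0.96) and Lair1 (0.96). Ctsg and Mpo named each other (0.99) and shared Csgalnact2, an enzyme of chondroitin sulphate synthesis, as the nearest gene, with r = 0.99 for both. After these came Gstm1 (0.96) for Ctsg and Cst7 (0.97) for Mpo. For Prss57 they were Gfi1 (0.97), a repressor needed for neutrophil development, Ms4a3 (0.96) and Tmx4 (0.96). For Ms4a3 they were Tmem273 (0.99), Tmx4 (0.97) and Elane (0.97). Gstm1 and Cst7 were themselves markers that set the ProNeu gate. These profiles have only 8 points, and are given with no test.

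Most genes of the list for folding and packing of the granule enzymes were higher in ProNeu-like than in HSC/MPP-like and PreNeu-like cells. The list was not compared between ProNeu-like cells and other classes. Of 12 measured genes of this list, 11 were at least 1.5-fold higher on the scale of CPM + 10 in ProNeu-like than in HSC/MPP-like cells in both libraries, where 10.7% of all measured genes were, and 12 of 12 were higher than in PreNeu-like cells, where 43.8% were. Srgn, the gene of serglycin, whose chains hold proteases in granules, had 774 CPM in HSC/MPP-like, 3800 in ProNeu-like and 262 in PreNeu-like cells of Ctrl, and 1054, 4883 and 305 CPM in cKO. Calr, a chaperone of the endoplasmic reticulum, had 1796 CPM in ProNeu-like and 118 CPM in PreNeu-like cells of Ctrl. Between the genotypes, 2 of the 12, Ppib (372 and 563 CPM) and Ssr4 (587 and 903 CPM), were called higher in ProNeu-like cells of cKO and none lower. Of all measured genes, 0.837% were called higher and 14.2% lower. The median log2 ratio was 0.11 over the list against -0.16 over all measured genes. Ppib was also higher in MEP-like (0.70) and ProMon-like cells (0.75), and Ssr4 in MEP-like (0.61) and GMP-like cells (0.66). Ssr4 went the other way in mNeu-like cells (-0.28). In ProNeu-like cells Srgn had a log2 ratio of 0.36, that of Elane, and Canx one of -0.45.

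Of 10 other contents of the azurophil granule that were measured, 3 were higher in ProNeu-like than in HSC/MPP-like cells, against the 10.7% of all measured genes. Lyz2, the gene of lysozyme, had 494 CPM in ProNeu-like and 7608 CPM in PreNeu-like cells of Ctrl, and 515 and 9532 CPM in cKO, opposite to the proteases. In ProNeu-like cells 0 of 9 were called between the genotypes, with a median of 0.01, where 0.837% of all measured genes were called higher and 14.2% lower. Among inhibitors of granule proteases, 0 of 3 were called there, and Serpinb1a, which blocks elastase, proteinase 3 and cathepsin G, had 754 CPM in Ctrl and 796 CPM in cKO. Alas1, the first enzyme of haem synthesis and a gate marker, had 624 and 625 CPM. Of granule membrane genes, 1 of 7 was called, near the 14.2% of all measured genes, and this was Rab44, lower in cKO at 288 and 186 CPM. Cd63 had 973 and 1056 CPM, not called.

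Of the transcription factors known at these genes, 9 were measured in ProNeu-like cells. In cKO 0 of them were called higher, where 0.837% of all measured genes were, and 2 were called lower, where 14.2% were. These were Myb, from 655 to 416 CPM (log2 ratio -0.66), and Cbfb, from 69.2 to 45.2 CPM (-0.62). Lower Myb was not particular to ProNeu-like cells. Its log2 ratio was -0.78 in GMP-like, -0.76 in MEP-like and -1.10 in ProMon-like cells. Cbfb had -0.64 in GMP-like cells and -0.34, not called, in ProMon-like cells. In ProNeu-like cells Spi1, which encodes PU.1, had 207 and 221 CPM, Cebpe, the factor of the secondary granule stage, 218 and 220.0 CPM, and Gfi1 142 and 105 CPM. Between ProNeu-like and PreNeu-like cells 10 of the factors were measured. In both libraries, 4 were at least 1.5-fold higher in ProNeu-like cells on the scale of CPM + 10, and 3 were lower. The share of higher ones is near the 43.8% of all measured genes. Among the higher were Myb and Cebpa, with log2 ratios of 2.56 and 2.90 in Ctrl and 2.77 and 3.53 in cKO. Cebpe was among the lower, at -1.46 and -1.44. Of 10 measured secondary granule genes, 0 were called higher and 2 lower in ProNeu-like cells of cKO, Ltf (270.0 and 118 CPM) and Chil3 (337 and 186 CPM), and 1 of 5 gelatinase granule and late genes was called, Itgam, lower at 112 and 68.5 CPM. These shares are near the 14.2% of all measured genes that were called lower. Ltf, Chil3 and Cebpe were themselves markers of the secondary granule gate. Cells that passed this gate were not in the ProNeu-like class, so the gate bears on the levels of these genes there.

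The neighbours of the 6 genes on their chromosomes did not share their levels. Of 10 genes near Elane and Prtn3, 5 were measured in ProNeu-like cells and 0 called, with Ptbp1 the highest at 159 CPM in Ctrl and 144 CPM in cKO, and Cfd had 12 UMIs in Ctrl and 14 in cKO over the whole class. Of 14 granzyme and mast cell protease genes near Ctsg, 0 were measured. The highest of those looked at, Mcpt8, had 31.9 and 44.9 CPM. Near Mpo, the peroxidase genes Epx and Lpo had 4 and 2 UMIs in ProNeu-like cells of Ctrl and 0 and 1 in cKO, and 0 of 2 measured neighbours were called. In the MS4A family, 1 of 11 genes was measured, Ms4a6c, at 58.2 and 71.8 CPM, and of 14 other haemopoietic granule proteases 0 were.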

How the data were processed

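The deposited values are raw UMI counts of each gene in each cell barcode, from 1 Ctrl and 1 cKO library. According to the notes of the submitters, Cell Ranger 5.0.0 and the mm10 build were used. Cells with 200 to 9000 genes, at most 30% mitochondrial UMIs and at least 1000 UMIs were kept. Each cell was thinned to 1000 UMIs at random, and classes were gated on summed UMIs of 154 marker genes of 17 classes. A ProNeu-like cell had 3 or more UMIs of 8 markers after the later and other lineages had been gated out. UMIs were summed per class and library and scaled to CPM. Intervals were exact at 95%: Poisson for levels, Clopper-Pearson for shares, and from the binomial interval of the 2 sums for ratios. A gene was called at 1.5-fold, among genes with 50 CPM or more in 1 of the libraries of the class. Likeness used log2(CPM + 10). The text names the 6 genes, the 3 genes most like each, genes of 13 lists, Map4k4 and gate markers; the highest or lowest members named within a list were picked by their values. The members and lists were chosen with earlier results of these data known. UMIs per Mpo UMI, as a measure and in its alternatives, were added after the data had been seen. So were the alternatives with free RNA subtracted and without shared barcodes. The code was tested on simulated data. Analyses used Python 3.11.15, numpy 2.4.6, scipy 1.17.1, pandas 2.3.3 and scikit-learn 1.9.0.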

Additional observations from a re-analysis of the deposited data

How the results depend on the processing

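With 1 library per genotype, p-values could not be had, a replicate could not be left out, and intervals cover counting error alone. No paired analysis was possible because each genotype has 1 library. Classes are ranges of a marker count, and clustering gave no HSC/MPP, GMP or ProMon cluster, so these classes have no cluster value.

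The share of the 6 genes in ProNeu-like cells, 4.05% in Ctrl and 5.09% in cKO, was 3.98% and 4.98% with a minimum of 500 UMIs and thinning to 500, 4.27% and 5.23% with 2000 UMIs for both, 4.07% and 5.19% with another random thinning, 4.24% and 5.36% with clusters in place of gates, 4.07% and 4.97% without barcodes in both libraries, 5.63% and 7.41% without mitochondrial and ribosomal protein genes, and 3.89% and 4.81% as a mean over cells. Their log2 ratio of cKO over Ctrl, 0.33, was 0.32, 0.29, 0.35, 0.34, 0.29, 0.40 and 0.31 in the same order, 0.61 with median-of-ratios scaling, 0.35 with CPM taken without the 6 genes and 0.34 with the free RNA level subtracted. The cKO value was the higher one under each of these. Of the 6 genes, 3 were called higher in ProNeu-like cells with median-of-ratios scaling and 0 at a fold threshold of 2, against 1. The log2 ratio of protease UMIs per Mpo UMI there, 0.45, was 0.44 with 2000 UMIs, 0.46 with another thinning, 0.36 without shared barcodes and 0.40 as a mean over cells. The part of Mpo in PreNeu-like cells of cKO was 14.1% with 2000 UMIs. Of the 18 nearest genes by profile, 5 were also nearest by Spearman correlation and 9 in Ctrl alone.

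Called values that changed sign were Ms4a3 in HSC/MPP-like cells (-0.32) with another thinning and Mpo in imNeu-like cells (0.88) as a mean over cells; the cause was not tested. Of the values for single genes outside ProNeu-like sums, 302 moved by more than their counting interval, 279 did not and 2 called values changed sign.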
